A study of Mus musculus with 4 samples.

Results

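Many miRNAs are made mainly in certain lineages, though some of them are shared between lineages. Here 33 names listed for muscle, liver, nervous system, blood, pancreas, eye and pluripotent stem cells were followed. The cells were mouse embryonic fibroblasts (MEFs), the connective tissue cells of the embryo. Members were chosen by name alone, as a listed name with or without an arm suffix (5p or 3p), and passenger strands marked with a star were left out. All 33 names were on the array and matched 35 of its 710 miRNAs, since both arms were present for miR-142 and miR-338. The MEFs came from embryos at embryonic day 9.5 on a mixed C57BL/6 × 129/Sv background and had been immortalized by serial passage under the 3T3 protocol. Wild type cells (2 clones) were compared with Junb knock-out cells (Junb-/-, 2 clones), which lack the AP-1 subunit JUNB, to find miRNAs that depend on JUNB. No treatment was applied, and culture was at 37 °C under 8% CO2 with 10% fetal calf serum for all clones. The labels do not say whether the clones of a genotype came from separate embryos, so each p-value measures only the spread between these clones.

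Total RNA of each clone was hybridised to 1 Febit array, which extends captured miRNAs enzymatically with biotin and reads them by phycoerythrin in a single colour. Each miRNA had 8 spots, of which 5167 to 5361 in all were measured per array. The median spot intensity was 33.6 in wild type clone 1 and 84.0 to 110.1 in the other 3 clones. A level in the text is log2(intensity + 50) after quantile normalization over the arrays, averaged over the spots of a miRNA, and a genotype difference is Junb-/- minus wild type on that scale. The files used here give no background or control spots, and a probe's signal depends on its sequence as well as on the RNA, so levels of different miRNAs describe signals and do not count molecules. In a bulk sample a few cells with much of a miRNA and many cells with little of it cannot be told apart. Where a pair of values is given per genotype, the first is clone 1 and the second clone 2.

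A mature miRNA guides Argonaute proteins to mRNAs, mainly through its seed, bases 2 to 8 from its 5′ end. Muscle cells use miR-1 and miR-133a, hepatocytes miR-122, neurons miR-124, blood cells miR-142 and miR-223, pancreatic islets miR-375, and embryonic stem cells the miR-302 cluster. Fibroblasts are not known for high levels of any of these, so their array signal gives an estimate of the floor on which other miRNAs are read. RefSeq held mature sequences for 26 of the 35 (build GRCm38.p6), where an array name without an arm was read as the strand that carried the plain name in older miRBase releases. Their seeds are in capitals.

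The members with the highest array signal for which a sequence was held are shown first, because the level results turn on them.
mmu-miR-128: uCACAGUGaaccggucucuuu
mmu-miR-216a: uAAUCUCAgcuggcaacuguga
mmu-miR-216b: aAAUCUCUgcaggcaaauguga
mmu-miR-217: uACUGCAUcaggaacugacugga
mmu-miR-206: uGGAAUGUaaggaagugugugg
mmu-miR-153: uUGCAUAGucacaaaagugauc
These belong to neurons, pancreas and skeletal muscle and share no whole seed. miR-216a and miR-216b have 6 bases in common from base 2 on and differ at 4 of 22 positions. The genes of miR-216b, miR-216a and miR-217 neighbour each other on the plus strand of chromosome 11, with the mature strands at chr11:28746204-28746225, chr11:28757018-28757039 and chr11:28763761-28763783.

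The stem cell miRNAs and the blood miRNA with the lowest signals are shown for contrast.
mmu-miR-302b: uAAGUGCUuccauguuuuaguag
mmu-miR-302c: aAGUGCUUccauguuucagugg
mmu-miR-302d: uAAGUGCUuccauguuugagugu
mmu-miR-367: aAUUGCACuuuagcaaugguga
mmu-miR-142-3p: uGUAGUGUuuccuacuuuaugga
miR-302b and miR-302d share the seed AAGUGCU, and the RefSeq entry of miR-302c starts 1 base later, so that its seed is shifted within the same run. The genes of miR-302b, miR-302c, miR-302d and miR-367 lie together on chromosome 3.

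The paralogs are shown because probes for such similar strands may capture each other's miRNA.
mmu-miR-208a: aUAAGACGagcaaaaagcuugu
mmu-miR-208b: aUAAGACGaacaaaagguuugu
mmu-miR-499: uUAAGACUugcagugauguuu
mmu-miR-7a: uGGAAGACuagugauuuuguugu
mmu-miR-7b: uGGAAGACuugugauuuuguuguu
The heart miRNAs miR-208a and miR-208b share a seed and differ at 3 of 22 positions, and miR-499 shares 6 seed bases with them. miR-7a and miR-7b differ at 1 of the 23 positions compared. Levels within such pairs may hold signal of both partners. Both levels stayed low in each pair, with mean levels over the 4 clones of 6.56 for miR-208a, 6.50 for miR-208b, 6.20 for miR-7a and 6.34 for miR-7b.

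Most of the 35 miRNAs gave weak signals in all clones. The median over members of the median spot intensity was 17.0 and 49.4 (wild type) against 27.0 and 51.5 (Junb-/-). Over all 710 miRNAs the same median was 27.0 and 87.5 (wild type) against 67.8 and 86.1 (Junb-/-). The members thus lay below the array as a whole in each clone, and their median spot intensity exceeded the added offset of 50 in 3 and 17 of 35 members (wild type) and in 13 and 19 of 35 (Junb-/-). Spots with an intensity of exactly 0 made up 18.0% of the measured member spots in wild type clone 1, the dimmest array, and 2.97% to 6.34% in the other clones. Over all miRNAs these shares were 8.81% and 2.17% to 5.59%.

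After normalization the median member level was 6.60 and 6.56 (wild type) against 6.71 and 6.67 (Junb-/-). The median of all miRNAs was 6.99 and 6.94 (wild type) against 7.01 and 6.95 (Junb-/-), so members lay lower in each clone. In every clone 25 to 27 of the 35 were below the median of all, and 20 were below it in all 4 clones. By mean level over the clones, 7 members stood above the median of all miRNAs, 1 was in the highest quartile and 16 (45.7%) were in the lowest quartile. The members were therefore spread over the lower part of the array's range and did not all sit at its bottom.

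**Figure D1:**
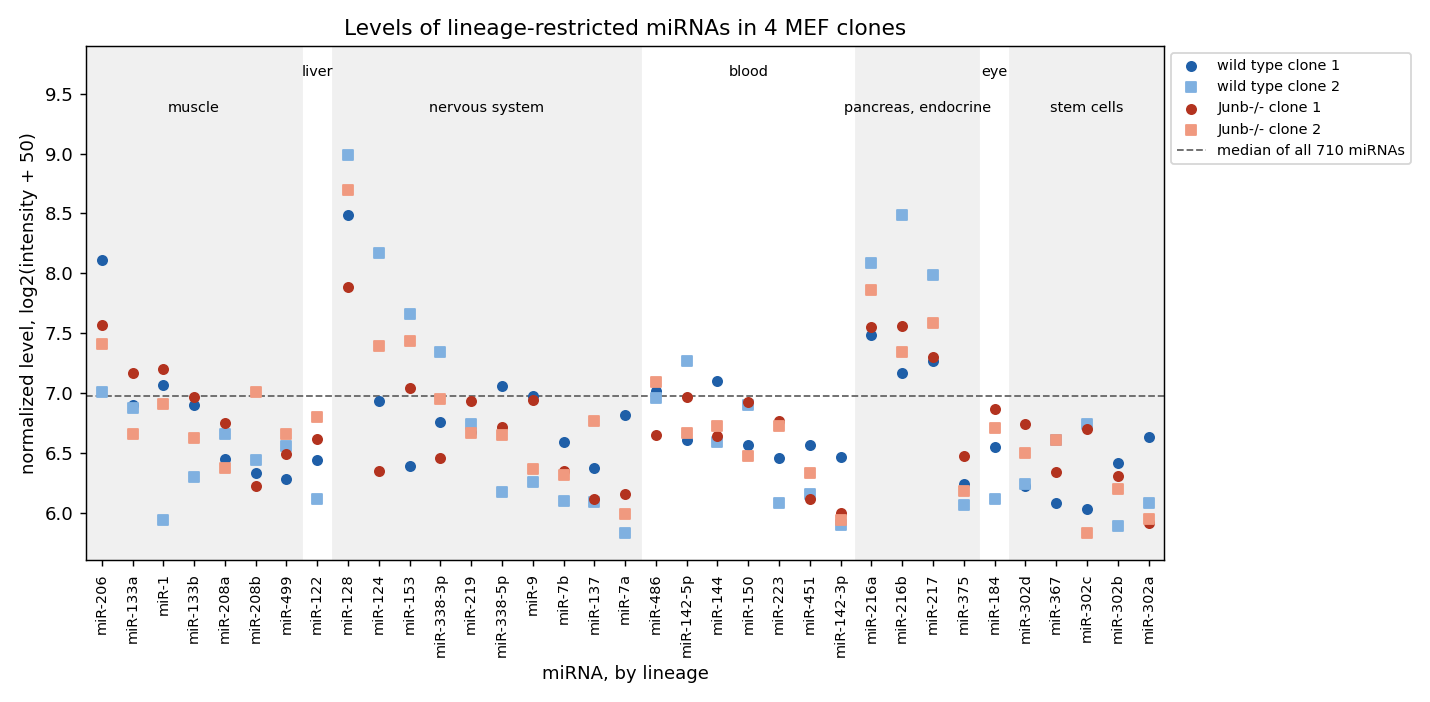
Normalized level (log2 of intensity + 50, y axis) of each of the 35 lineage-restricted miRNAs (x axis, grouped by lineage) in the 2 wild type (blue) and 2 Junb-/- (red) clones, with the median of all 710 miRNAs as a dashed line. miR-128 is the highest member in each clone, miR-216a, miR-216b and miR-217 stand above the dashed line, and the stem cell miRNAs lie below it.

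As a positive reference, 26 array names for 25 miRNAs common in fibroblasts and mesenchyme were read, among them miR-21, miR-143, miR-199a, miR-214 and the let-7 family. Their median level was 10.65 and 10.80 (wild type) against 10.57 and 10.64 (Junb-/-), and their median of median spot intensities was 1293 and 1766 (wild type) against 1266 and 1818 (Junb-/-). None of their spots was at 0. In each clone 23 or 24 of the 26 exceeded the highest member of that clone, and 22 did so in all 4. The exceptions in at least 1 clone were miR-221, miR-222, let-7b and let-7g, of which miR-222 had the lowest mean level, 7.90.

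Read as a floor, the 90th percentile of the members was 7.23 and 8.05 (wild type) against 7.45 and 7.42 (Junb-/-). Of the 675 miRNAs that are not members, 265, 200, 240 and 261 were above it in these clones, and 158 were above it in all 4. Against the highest member the counts were 141, 135, 176 and 136, with 106 above it in all clones. By this percentile the floor was highest in wild type clone 2, where a few bright members carried it, while by the members' median the same clone was the lowest at 6.56. The 28 members other than the 7 above the median of all miRNAs, a group formed after the values were seen, had medians of 6.56, 6.25, 6.64 and 6.64 in the same order of clones. A floor of this kind assumes that MEFs do not make the members, which was not tested.

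**Figure D2:**
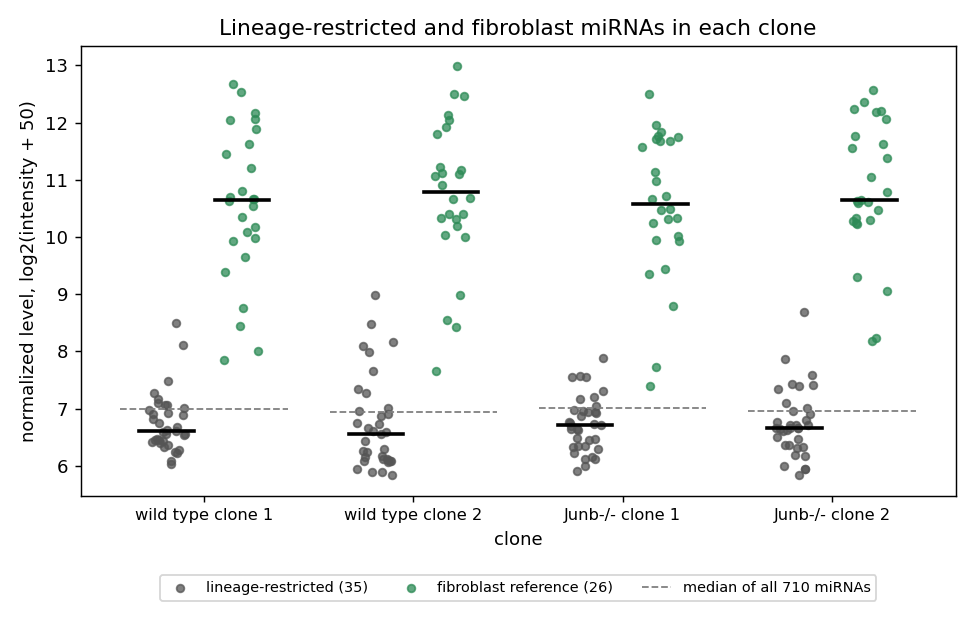
Normalized levels (log2 of intensity + 50, y axis) of the 35 lineage-restricted (grey) and 26 fibroblast reference miRNAs (green) in each clone (x axis), with a black bar at the median of each list and a dashed line at the median of all 710 miRNAs. The grey bars lie between 6.56 and 6.71 and the green bars between 10.57 and 10.80, and miR-128 is the highest grey point in each clone.

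The miRNAs of the nervous system held the widest range, with mean levels from 6.20 to 8.51 over 10 array names. miR-128, a brain miRNA with gene copies on chromosomes 1 and 9, was the highest of all members and ranked 136 of 710 by mean level. Its median spot intensity was 180.2 and 682.6 (wild type) against 162.8 and 601.0 (Junb-/-). Its level was 8.49 and 8.98 (wild type) against 7.88 and 8.69 (Junb-/-). The second clone of each genotype gave the higher signal and the genotypes overlapped. None of its spots was at 0, and the lowest of them was 24.8 to 427 depending on the clone. By mean level miR-128 was the sole member above the dimmest fibroblast reference miRNA, miR-222 with 7.90. In some single clones other members reached that range too. In wild type clone 2 miR-216b was at 8.49 and miR-124 at 8.17, beside 7.65 for miR-222. Also above miR-222 there were miR-216a at 8.09, miR-217 at 7.99 and, barely, miR-153 at 7.66. In wild type clone 1 miR-206 was at 8.11, beside 8.01 for miR-222 and 7.85 for miR-221, the dimmest reference miRNA there. Junb-/- clone 1 had miR-206 at 7.57, miR-216b at 7.56 and miR-216a at 7.55, beside 7.39 for miR-221. In Junb-/- clone 2 the next member, miR-216a at 7.86, stayed under miR-221 at 8.18.

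miR-124, the most abundant miRNA of neurons, followed with a level of 6.93 and 8.17 (wild type) against 6.35 and 7.40 (Junb-/-). It was above the median of all miRNAs in wild type clone 2 and Junb-/- clone 2 only, so its clones within a genotype differed more than the genotypes did. miR-153, which targets transcripts of synaptic vesicle proteins, showed 6.39 and 7.66 (wild type) against 7.04 and 7.43 (Junb-/-), and wild type clone 1 stood apart as the lowest. The other neural members had mean levels of 6.88 or less. Among them miR-9, a regulator of neural progenitors, had 6.97 and 6.25 (wild type) against 6.94 and 6.37 (Junb-/-). The oligodendrocyte miRNAs miR-219 and miR-338-3p had mean levels of 6.75 and 6.88. The lowest was miR-7a, found in neurons and endocrine cells, with 6.82 and 5.83 (wild type) against 6.15 and 5.99 (Junb-/-).

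Of the pancreatic miRNAs, the cluster that marks acinar cells and the islet miRNA differed in signal. miR-216a had levels of 7.48 and 8.09 (wild type) against 7.55 and 7.86 (Junb-/-). miR-216b had 7.17 and 8.49 (wild type) against 7.56 and 7.34 (Junb-/-). miR-217 had 7.27 and 7.99 (wild type) against 7.30 and 7.58 (Junb-/-). All 3 neighbours were above the median of all miRNAs in all 4 clones, and each was highest in wild type clone 2. Their median spot intensities were 24.0 to 63.0 in wild type clone 1, where they were under or near the offset, and 304 to 390 in wild type clone 2. miR-375, which restrains insulin secretion, lay at 6.24 and 6.07 (wild type) against 6.48 and 6.18 (Junb-/-), below the median of all in each clone.

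The muscle miRNAs ranged from a mean level of 6.50 to 7.52. miR-206, which acts in skeletal muscle and is made from the same locus as miR-133b on chromosome 1, was the highest, with 8.11 and 7.00 (wild type) against 7.57 and 7.41 (Junb-/-). It was above the median of all miRNAs in all 4 clones. Its median spot intensity was 136.8 and 80.0 (wild type) against 314.4 and 155.2 (Junb-/-), and thus highest in Junb-/- clone 1. The highest spot was 483 and 611 (wild type) against 449 and 586 (Junb-/-). miR-133b, the partner of miR-206, had a mean level of 6.70, so the miRNAs of this locus did not share a high signal. miR-1, which promotes muscle differentiation, had 7.07 and 5.94 (wild type) against 7.20 and 6.91 (Junb-/-), with wild type clone 2 as the low sample. miR-133a, from the same transcripts as miR-1, had a mean level of 6.90. The heart miRNAs encoded within myosin heavy chain genes were lower, with mean levels of 6.56 for miR-208a, 6.50 for miR-208b and 6.50 for miR-499. The lowest of these, miR-499, had 6.28 and 6.56 (wild type) against 6.49 and 6.65 (Junb-/-).

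All 7 array names for blood miRNAs had a mean level below the median of all. miR-486, which red cells and muscle share, was the highest with 7.02 and 6.96 (wild type) against 6.65 and 7.09 (Junb-/-). The erythroid pair miR-144 and miR-451, made from a common transcript, had mean levels of 6.76 and 6.29. miR-150 of lymphocytes had a mean level of 6.72. The lowest member of all was miR-142-3p, which all blood lineages express, with 6.46 and 5.90 (wild type) against 6.00 and 5.94 (Junb-/-) and rank 709 of 710. Its other arm, miR-142-5p, had 6.60 and 7.27 (wild type) against 6.97 and 6.67 (Junb-/-). The mean levels of these arms of a single hairpin were 6.07 and 6.88, a gap within 1 locus that covers most of the range of the blood list.

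The 5 stem cell miRNAs were the lowest lineage, all in the lowest quartile of the array, with mean levels from 6.14 to 6.42. miR-302a had 6.63 and 6.08 (wild type) against 5.92 and 5.94 (Junb-/-). miR-302b had 6.41 and 5.89 (wild type) against 6.30 and 6.20 (Junb-/-). miR-302d had 6.22 and 6.24 (wild type) against 6.74 and 6.50 (Junb-/-). The cluster is made as 1 transcript in pluripotent cells. miR-122, which makes up much of the miRNA in hepatocytes, had 6.44 and 6.11 (wild type) against 6.62 and 6.80 (Junb-/-). miR-184, known from cornea and lens, had 6.54 and 6.11 (wild type) against 6.87 and 6.71 (Junb-/-). Both were below the median of all in each clone.

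**Figure D3:**
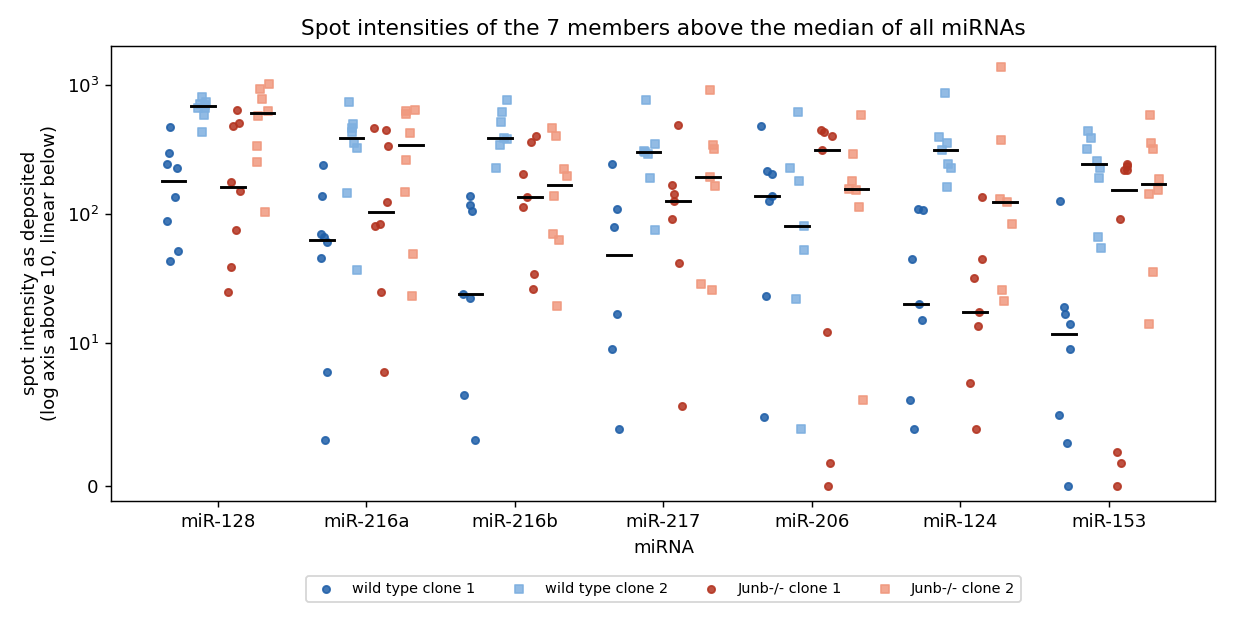
Spot intensity as deposited (y axis, logarithmic above 10 and linear below) of the 7 members whose mean level was above the median of all miRNAs (x axis), with up to 8 spots per clone as points and the median as a black bar, for wild type (blue) and Junb-/- (red) clones. Spots of 1 miRNA in 1 clone spread widely, and for miR-128 the bars are at 180.2 and 682.6 in wild type and at 162.8 and 601.0 in Junb-/- clones.

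Sequence composition moved with the signal among members. Over the 26 members with a sequence, GC content was 30.0% at the lowest and correlated with mean level, with a Pearson r of 0.55 and a Spearman rho of 0.45. The 6 of them above the median of all miRNAs had a median GC content of 45.5% and the 20 below it one of 35.6%. Over the 198 array names that equal a RefSeq mature name the rho was 0.21. These points share the arrays and, in part, the loci, and the part of GC content in the levels was not tested.

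No member passed the test between the genotypes. By limma, with Benjamini-Hochberg adjustment over all 710 miRNAs, 0 of 35 members had an adjusted p under 0.05, where 10 of 710 miRNAs (1.41%) did. At that background less than 1 call would fall on a list of this size, so the count of 0 is near it. An unadjusted p under 0.05 was seen for 0 of 35 members and for 74 of 710 miRNAs (10.4%), and the lowest p of any member was 0.166 (limma), for miR-124. The genotypes did not overlap for 5 of 35 members, or 14.3%, against 38.6% of all miRNAs. The median difference was 0.0040 over members, with 18 above and 17 below 0, and 0.044 over all miRNAs. The median absolute difference was 0.17 for members and 0.30 for all miRNAs.

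**Figure D4:**
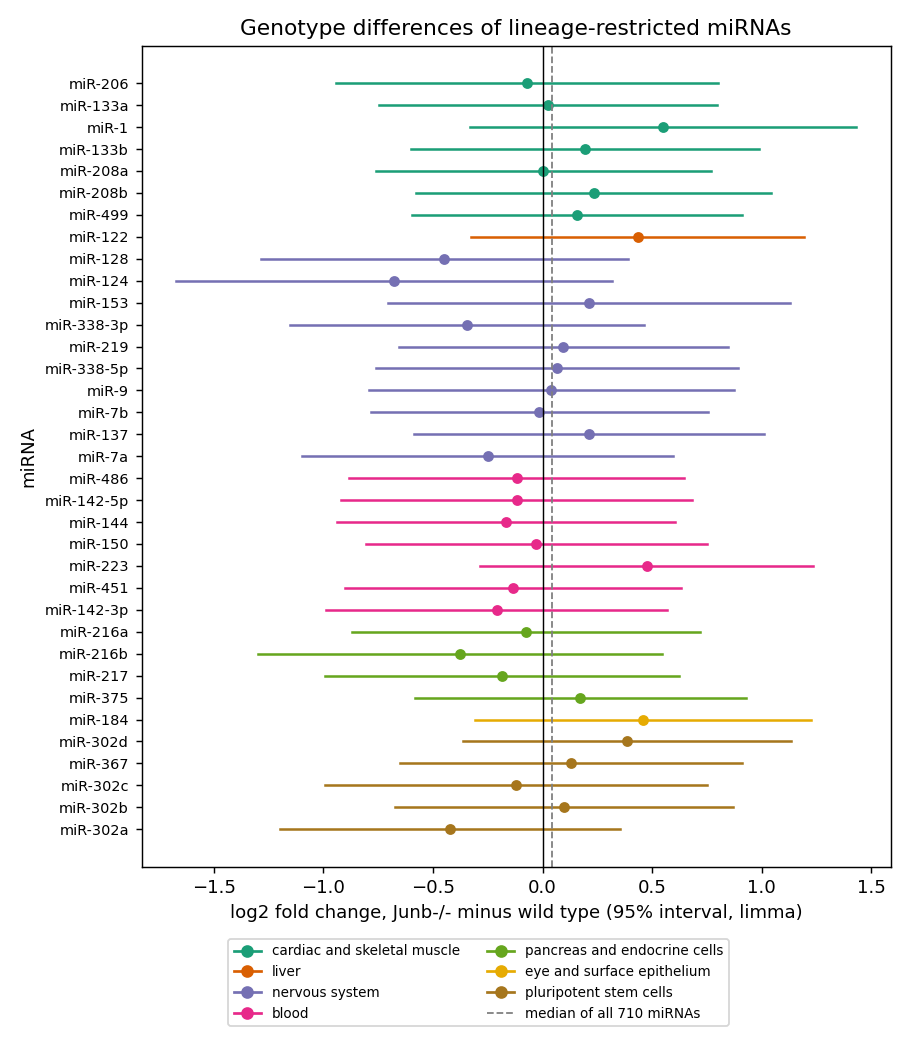
Log2 fold change of Junb-/- minus wild type (x axis) with its 95% interval from limma for each of the 35 lineage-restricted miRNAs (y axis), coloured by lineage, with 0 as a solid line and the median of all 710 miRNAs as a dashed line. All 35 intervals hold 0, and the outermost points are miR-124 at -0.68 and miR-1 at 0.55.

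The differences of highest size were as follows, none past the threshold. miR-124 had a log2 difference of -0.68 (standard error 0.46, 95% interval -1.67 to 0.32, adjusted p = 0.737 from limma). miR-128 had -0.45 (95% interval -1.29 to 0.39), and -0.85 to -0.04 with a clone left out. miR-302a had -0.42 (95% interval -1.20 to 0.35, and -0.70 to -0.15 with a clone left out), with both Junb-/- clones below both wild type clones. miR-216b had -0.38, which turned to 0.28 when wild type clone 2 was left out and to 0.11 with the values normalized by the authors. miR-338-3p had -0.34, from 6.75 and 7.34 (wild type) against 6.46 and 6.95 (Junb-/-), which became -0.05 when wild type clone 2 was left out and turned to 0.23 with the authors' values and to 0.10 with the median over spots. In the other direction miR-1 had 0.55 (standard error 0.41, 95% interval -0.33 to 1.43, adjusted p = 0.738 from limma). miR-223, a regulator of granulocytes, had 0.47, from 6.45 and 6.08 (wild type) against 6.76 and 6.72 (Junb-/-). miR-184 had 0.46, miR-122 0.43 and miR-302d 0.39. For these last 4, miR-223, miR-184, miR-122 and miR-302d, both Junb-/- clones lay above both wild type clones, but the intervals of all 4 held 0. With the authors' values the genotypes overlapped for miR-302d and miR-223, though not for miR-184 and miR-122. The difference of miR-302d was 0.02 with those values and 0.06 with the median over spots. That of miR-223 was 0.78 and 0.36 in the same order.

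For most members a gap between clones was larger than the genotype difference. For 31 of 35 members the gap between clones of at least 1 genotype exceeded the difference between the genotypes, which held for 73.7% of all miRNAs. The median gap between the wild type clones was 0.52 and that between the Junb-/- clones 0.28, beside the median absolute genotype difference of 0.17. These are unlike measures, as a gap sets 1 clone against 1 clone and a genotype difference is between means of 2 clones. A gap thus varies more even where the genotypes do not differ. Single spots within a clone had a median SD of 0.84 for members, 0.85 for all miRNAs and 0.59 for the fibroblast reference. With 1 clone left out, miR-124 ran from -1.30 to -0.06 and miR-1 from -0.01 to 1.11. The difference of miR-1 was -0.01 without wild type clone 2, so its value rests on that clone. That of miR-124 was -0.06 without the same clone and -0.15 without Junb-/- clone 1. For miR-124 the differences between clones of the same number were -0.58 and -0.77. The study speaks of clone pairs, but what pairs the clones is not stated, and the unpaired fit was kept.

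By lineage the medians of the genotype difference were 0.16 for muscle (7 array names), 0.01 for the nervous system (10), -0.12 for blood (7), -0.13 for pancreas (4) and 0.10 for stem cells (5), beside 0.044 for all miRNAs. Of the muscle members 6 of 7 were above 0, beside 386 of 710 miRNAs, and 4 of 7 with cyclic loess, with median scaling, or when wild type clone 2 or Junb-/- clone 1 was left out. Of the blood members 6 of 7 were below 0, but 2 of 7 without normalization and 3 of 7 when wild type clone 1 was left out. No member of either list passed the test. The intervals of the 35 members reached from -1.67 to 1.43 at their outermost and were up to 1.99 wide, with a median of 1.56. At intensities near the offset of 50 a change in RNA also appears smaller than it is, and small differences in members at the floor were not detectable on these arrays.

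Further lineage-restricted miRNAs, listed by name as a comparison, were also mostly low. Of 28 array names for 21 miRNAs of nervous system, blood, gut and the stem cell cluster miR-290 to miR-295, 6 were above the median of all miRNAs and 12 in the lowest quartile, and their median level was 6.42 to 6.76 in the 4 clones. One of them, miR-342-3p, which is found in lymphocytes and in many other cells, exceeded every member with a mean level of 8.92. miR-155 of activated immune cells had the lowest p of these lists, with a log2 difference of 0.75 (adjusted p = 0.531 from limma), and 0 of the 28 were called. Of the fibroblast reference, 0 of 26 were called either, while 5 had an unadjusted p under 0.05.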

How the data were processed

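The authors deposited, per the file headers and labels, 1 linear intensity per spot and array, without background, flag or control columns, and 1 normalized log2 value per miRNA and array whose normalization the sources used here do not describe. No genome build is named for the array. Missing spots were left out. Log2(intensity + 50) was quantile-normalized over the 4 arrays, averaged over spots and tested for all 710 miRNAs with limma 3.58.1 in R 4.3.3 (lmFit and eBayes, two-sided, Benjamini-Hochberg, 11.8 prior and 2 residual degrees of freedom). Normexp was to be used where a background value is given. The files used here give none, so the offset alone was used and normexp was an alternative. The limma fit alone was tested on simulated miRNA levels, and the offset, the normalization and the averaging over spots were not. Sequences were read from RefSeq. Tools for summaries and plots were Python 3.11.15 and matplotlib 3.10.9.

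The members, the lists and the alternatives were chosen with earlier results of these data known. Members given with the value of every clone were the 5 highest and 5 lowest by mean level, the 5 with the largest difference in each direction, and the highest and lowest of each lineage. miR-153, miR-9, miR-142-5p and the comparison miRNAs were added after their values were seen. With 4 arrays the precision is limited by their number. The alternatives covered the offset, a floor, the normalization between arrays, the authors' values, the summary over spots, a filter on dim miRNAs, the limma settings, a block for clone number and the omission of each clone. A slide block was not run, as the files name no slide.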

Additional observations from a re-analysis of the deposited data

How the results depend on the processing

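The count of called members was 0 under all 16 alternatives (limma, adjusted p under 0.05), with 0 to 3 of the members tested at an unadjusted p under 0.05 in each. Of the 35 members, 8 kept the sign of their genotype difference under each alternative that tested them and 27 did not, and none of these differences was called. The trend and robust settings, the replicate block and the filter reuse the same levels and could not change a sign. Normexp gave nearly the same differences as the main fit. The filter on dim miRNAs tested only 7 members. The count over all miRNAs was 10 and became 4 with values under 16 set to 16 and with the authors' values, 17 with trend and robust settings, 29 with cyclic loess, and 0 with 75th percentile scaling, median scaling, no normalization or the median over spots, where 62, 61, 31 and 75 had an unadjusted p under 0.05. It was 0 to 11 with a clone left out, and 0 without wild type clone 1 or wild type clone 2 (71 and 62 at an unadjusted p under 0.05). Same-numbered clones share a number, and their deviations correlated at 0.31 over all miRNAs, which 2 pairs do not settle. With the clone number as a replicate block 16 miRNAs were called and no member was, and the lowest member p was 0.0402 (miR-124, adjusted p = 0.267). The median difference of the members was 0.0040, and it was -0.055 with median scaling, -0.068 with cyclic loess, 0.21 without normalization, where the median of all miRNAs was 0.23, -0.19 over the 7 members left by the filter on dim miRNAs, and -0.030 to 0.067 with a clone left out. The members' median level lay 0.34 under that of all miRNAs (-0.34), and this became -0.49 with an offset of 16, -0.50 with values under 16 set to 16, -0.63 with the authors' values, -0.41 with the median over spots and -0.49 among miRNAs above the median. Normexp gave the same counts as the offset alone. The cause of these shifts was not tested. A fit without 1 clone assumes that the lone clone varies like the other genotype. Signals near or under the offset limit what can be seen for many members.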

Other observations

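Of the 7 members above the median of all miRNAs, 5 (miR-128, miR-124, miR-153, miR-216a and miR-217) were higher in clone 2 than in clone 1 in wild type and in Junb-/- cells alike. The gap was 1.24 and 1.05 for miR-124 in wild type and Junb-/- cells, and 0.50 and 0.81 for miR-128. miR-206 went the other way in both genotypes, by -1.11 and -0.16, and for miR-216b the gaps had opposite signs, 1.32 in wild type and -0.21 in Junb-/- cells. Over all 35 members, 9 were higher in clone 2 in both genotypes and 13 higher in clone 1, and over all 710 miRNAs the shares were 27.0% and 33.1%. The 7 were picked by their level after the values had been seen, and no test was made.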
